A study of Mus musculus with 6 samples.

Results

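Asparagine synthetase, the enzymes of proline synthesis and the aminotransferases that hand nitrogen between glutamate, the branched-chain amino acids, alanine and aspartate were examined as 8 genes, Aldh18a1, Pycr1, Asns, Glul, Bcat1, Bcat2, Gpt2 and Got1, of 22298 in the table. They were selected by symbol after the comparison of chronic epinephrine with control was already known for these samples, so their differences between the groups are given as a description and are not used as evidence. All 8 genes passed the filter on low counts, as did 12747 genes in all. MIN6 is a mouse insulinoma line that secretes insulin, and 3 control samples were set against 3 samples of chronic epinephrine exposure. Epinephrine, an adrenergic stress hormone, was given at 100 nM for 3 days, followed in the scheme of the study by 2 days without it. The medium given for the line held serum and β-mercaptoethanol, the day of RNA collection is not stated, and a single tumour line stands for the β-cell. The methods of the study describe its replicates as biological and its samples as independent, without saying whether these came from separate cultures, and p-values measure the spread between these samples.

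Proline is built from glutamate in the mitochondrion. Aldh18a1 encodes pyrroline-5-carboxylate synthase, which starts this route, and Pycr1 encodes a mitochondrial pyrroline-5-carboxylate reductase, which ends it. Asns makes asparagine from aspartate with glutamine as nitrogen donor, and Glul makes that glutamine from glutamate and ammonia. Bcat1 and Bcat2, in the cytosol and in the mitochondrion, move the amino group of leucine, isoleucine and valine to glutamate. Gpt2 does so for alanine in the mitochondrion and Got1 for aspartate in the cytosol. Asns, Pycr1 and Aldh18a1 are textbook targets of ATF4, the transcription factor translated when amino acids run short or the endoplasmic reticulum is stressed. ATF4 with a C/EBP partner binds a composite element of the form TGATGNAA.

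The promoters that hold this element are shown because the 3 genes concerned belong to different branches of the group. The letters TGATGNAA, or the same letters on the other strand, were searched from 250 bases before to 50 after each RefSeq start site (GRCm38.p6). The 8 genes had 10 such promoters, and 1 promoter each of Asns, Pycr1 and Got1 held a match, against 3.97% of 32851 promoters of the same length. The stretch from 130 to 16 bases before the start site is printed 5′ to 3′ on the strand of the gene, with the matched letters in capitals.
Asns, minus strand, chr6:7693225-7693339: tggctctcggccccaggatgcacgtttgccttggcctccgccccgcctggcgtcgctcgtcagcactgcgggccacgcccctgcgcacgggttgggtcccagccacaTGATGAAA
Pycr1, minus strand, chr11:120643764-120643878: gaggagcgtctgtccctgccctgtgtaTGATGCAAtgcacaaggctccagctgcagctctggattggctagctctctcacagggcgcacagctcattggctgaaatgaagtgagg
Got1, minus strand, chr19:43524621-43524735: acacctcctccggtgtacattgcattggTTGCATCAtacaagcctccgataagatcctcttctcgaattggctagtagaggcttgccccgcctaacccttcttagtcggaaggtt
The match began 23 bases before the start site in Asns, 103 in Pycr1 and 102 in Got1, where it lay on the other strand. One annotated Asns transcript of GENCODE release M21 starts 45 bases upstream of the RefSeq site, and an exon of it covers the match. The promoters of Aldh18a1, Glul, Bcat1, Bcat2 and Gpt2 did not hold these letters in this window, nor did those of Got2, Oat and Odc1 among the neighbouring enzymes. A match is a description of the sequence, and binding was not measured.

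The controls held 15017065 to 17457583 expected counts each, and the epinephrine samples 15256957 to 18127171. All 15 β-cell markers were detected, and Ins2 held 2.52% of the counts in control 1 and 3.11% to 3.69% in the other samples. Ins1 was at 2815 to 2932 normalized CPM in the controls and 1983 to 2091 after epinephrine, and Pdx1 at 556 to 696 and 455 to 484, both with groups apart, and their part in the results was not tested. Control 1 stood apart from controls 2 and 3, so the log2 fold changes of the 8 genes and the counts of calls are also given without it. Of 20 hepatocyte markers, the 19 other than Ttr, which islet cells also express, summed to 18.2 normalized CPM in control 1, 102 in control 2, 233 in control 3 and 16.2 to 19.8 after epinephrine. Fga was at 0 in control 1 and in every epinephrine sample. In the sum of these 19 markers control 1 lay within the range of the epinephrine samples, and controls 2 and 3 lay above it. Fits without control 1 therefore rest on controls 2 and 3, which held more of this signal. Its part in the results, with or without control 1, was not tested. The 17 exocrine pancreas markers found summed to between 17.9 and 20.8 in controls and between 40.1 and 44.2 with epinephrine. Bhlha15 was at 14.5 to 18.6 and 26.4 to 30.2, so it made up part of this difference and other markers of the list the rest. Of the 17, 13 stayed at or under 3 counts in every sample, among them Cpa1, Prss2, Pnlip and Ptf1a at 0 in each. The 12 fibroblast markers summed to 30.5 in control 1, 4.34 and 14.2 in controls 2 and 3 and 2.12 to 23.4 after epinephrine, and the 12 leukocyte markers to 1.43 to 4.57 over all samples. The part of the exocrine, fibroblast and leukocyte signal in the results was not tested. In cultured cells measured in bulk, fewer cells of a kind and less RNA per cell cannot be told apart.

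Levels are normalized CPM (counts scaled to the total of a sample after TMM normalization over all genes) when samples are compared. Log2 fold changes and their SE come from the quasi-likelihood test of edgeR on all genes, and a gene is called at an FDR (Benjamini-Hochberg over all genes tested) under 0.05. Gene positions are those of GENCODE release M21 on GRCm38, from the start of the first to the end of the last transcript.

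Of the steps of the proline route measured here, the last differed more than the first. Pycr1 (ENSMUSG00000025140, chromosome 11 from 120635712 to 120643769) was at 28.4, 21.6 and 25.7 normalized CPM in controls 1, 2 and 3, and at 58.4, 56.8 and 55.9 in chronic epinephrine 1, 2 and 3. Every epinephrine sample lay far above every control, and the epinephrine samples varied less (coefficient of variation 2.15%) than the controls (13.5%). This gave a log2 fold change of 1.18 (SE 0.11), a 2.26-fold level, and 1.27 (SE 0.08) without control 1. Aldh18a1 (ENSMUSG00000025007, chromosome 19 from 40550257 to 40588463) was at 81.2, 52.9 and 54.6 normalized CPM in the controls and at 96.7, 87.9 and 94.3 after epinephrine. Control 1 was 1.51 times the mean of the other two controls and came within reach of the epinephrine samples, though the groups did not overlap. The log2 fold change was accordingly 0.56 (SE 0.16) with all samples, where the gene was not called, and 0.79 (SE 0.06) without control 1, where it was.

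Pycr1 was measured by 378 to 1014 counts per sample and Aldh18a1 by 872 to 1631. On FPKM (counts per transcript length and sample total), which allows levels of different genes to be set side by side, Pycr1 was below Aldh18a1 in each control, with a Pycr1 to Aldh18a1 ratio of 0.714, 0.829 and 0.940. After epinephrine the ratio was 1.17, 1.25 and 1.20, so the last enzyme stood above the first in all 3 samples.

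Asns (ENSMUSG00000029752, chromosome 6 from 7675169 to 7693254) showed the steadiest controls of the group. It was at 150, 145 and 153 normalized CPM in the controls and at 247, 228 and 247 after epinephrine. Control 1 did not stand apart here, at 1.01 times the mean of controls 2 and 3. The log2 fold change was 0.69 (SE 0.08) with all samples and 0.69 (SE 0.05) without control 1, a 1.61-fold level, from 2316 to 4160 counts per sample.

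Glul (ENSMUSG00000026473, chromosome 1 from 153899944 to 153909723), which supplies the glutamine that Asns uses, was the 1 gene of the 8 that lay lower after epinephrine. Its normalized CPM were 265, 198 and 207 in the controls and 197, 196 and 196 after epinephrine. Only control 1 was clearly higher, at 1.31 times the mean of controls 2 and 3, and control 2 cleared the highest epinephrine sample by less than 1 CPM. With all samples the log2 fold change was -0.19 (SE 0.12), and without control 1 it was -0.04 (SE 0.05). On FPKM, Glul and Asns overlapped in the controls, with an Asns to Glul ratio of 0.754, 0.970 and 1.01. After epinephrine Asns was the most abundant of the 8, at 1.75, 1.56 and 1.71 times Glul. Transcripts of Glul shared 12.6% of their 50-base windows with other annotated genes, among them the pseudogene Glns-ps1, and its exons overlap Mir8114 and, on the other strand, Teddm2. The strand setting of the counts is not stated, so reads of such partners cannot be told apart.

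The branched-chain aminotransferases differed in both level and change. Bcat1 (ENSMUSG00000030268, chromosome 6 from 144993835 to 145076184) was at 3.50, 3.43 and 2.75 normalized CPM in the controls and at 7.18, 7.56 and 7.60 after epinephrine. The lowest epinephrine sample was more than double the highest control. Between the group means lay a log2 fold change of 1.20 (SE 0.15), a 2.30-fold level, and 1.26 (SE 0.18) without control 1. The value was not separated from that of Pycr1 beyond their SE, and it rested on 44 to 135 counts per sample, the fewest of the group. Bcat2 (ENSMUSG00000030826, chromosome 7 from 45570153 to 45589711) was at 9.90, 7.14 and 9.01 normalized CPM in the controls and at 11.6, 11.3 and 12.6 after epinephrine. The gap between the groups was smaller than the range of the controls. The log2 fold change was 0.45 (SE 0.14) with all samples and 0.55 (SE 0.13) without control 1.

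The authors' FPKM and counts can be divided to show the transcript length that the authors' estimate implies. Relative to the mean of the controls, that length for Bcat1 was 1.09, 1.01 and 0.906 in the controls and 0.894, 0.878 and 0.878 after epinephrine, and its highest value was 1.24 times the lowest. For the other 7 genes that quotient lay between 1.01 for Gpt2 and 1.09 for Bcat2, and its median over genes above 20 FPKM was 1.02. The implied length of Bcat1 was lower in all 3 epinephrine samples than in all 3 controls, and its FPKM and its FPKM ratio to Bcat2 contain this difference, whereas its CPM does not use length. Bcat1 exons overlap the antisense gene Gm26666 and Bcat2 exons the antisense gene 0610005C13Rik, with 2.55% and 11.6% of windows shared with other genes.

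The aminotransferases of alanine and aspartate behaved differently in size. Gpt2 (ENSMUSG00000031700, chromosome 8 from 85492576 to 85527560) was at 22.6, 20.4 and 22.8 normalized CPM in the controls and at 37.3, 36.3 and 33.8 after epinephrine. Controls varied by 6.02% and epinephrine samples by 5.07% (coefficient of variation), and a wide gap lay between them. The log2 fold change was 0.71 (SE 0.09), a 1.63-fold level, and 0.73 (SE 0.08) without control 1. Got1 (ENSMUSG00000025190, chromosome 19 from 43499752 to 43524605) was at 43.0, 35.1 and 38.8 normalized CPM in the controls and at 48.5, 46.8 and 51.2 after epinephrine. The highest control and the lowest epinephrine sample were close. Its log2 fold change was 0.32 (SE 0.10), a 1.25-fold level, and 0.40 (SE 0.07) without control 1.

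**Figure D1:**
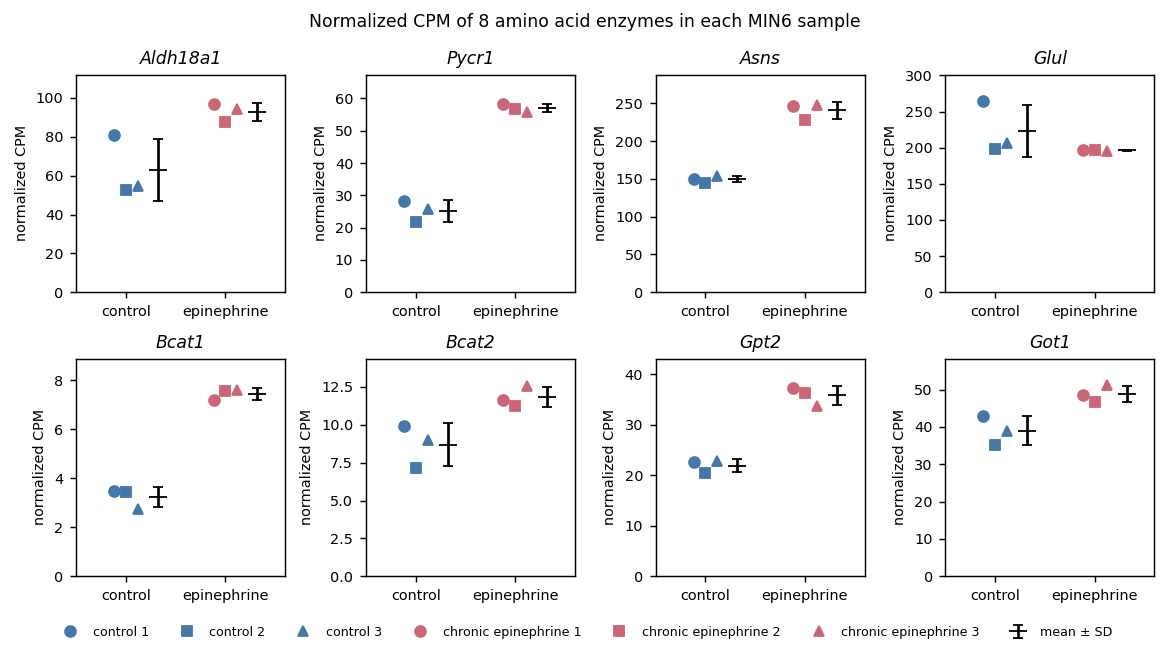
Normalized CPM (vertical axes, starting at 0) of each of the 8 genes in the 3 control samples (blue) and the 3 chronic epinephrine samples (red), with the marker shape giving the sample number and the bar the mean ± SD. Control 1 (blue circle) is the control nearest to the epinephrine samples for Aldh18a1, Pycr1, Bcat1, Bcat2 and Got1. For Glul, control 1 is the highest sample, at 265 CPM.

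Of the 8 genes, 4 were called as higher, namely Pycr1, Asns, Bcat1 and Gpt2, where 2.02% of all genes tested were called as higher. None was called as lower, against 0.612% of all genes. Pycr1 and Bcat1 also passed the threshold of at least 2-fold, which 0.635% of all genes passed as higher. The groups did not overlap for 7 genes that were higher after epinephrine and for Glul that was lower, where 14.3% and 13.0% of all genes tested had groups apart in those directions. Without control 1, 7 of the 8 were called as higher, against 12.1% of all genes, and 0 as lower, against 9.46%. Since the genes were picked with this comparison in view, nothing is read from these counts. The median log2 fold change of the 8 was 0.63, and that of all genes tested was -0.0023. The number called fell to 1 without chronic epinephrine 1, where only Pycr1 remained, and to 2 without chronic epinephrine 2 or 3. In the same fits the genes called over the whole table numbered 47, 47 and 77, against 335 with all samples. When each of the 6 samples was left out in turn, Pycr1 was called 6 times, Asns and Gpt2 4 times each and Bcat1 3 times.

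**Figure D2:**
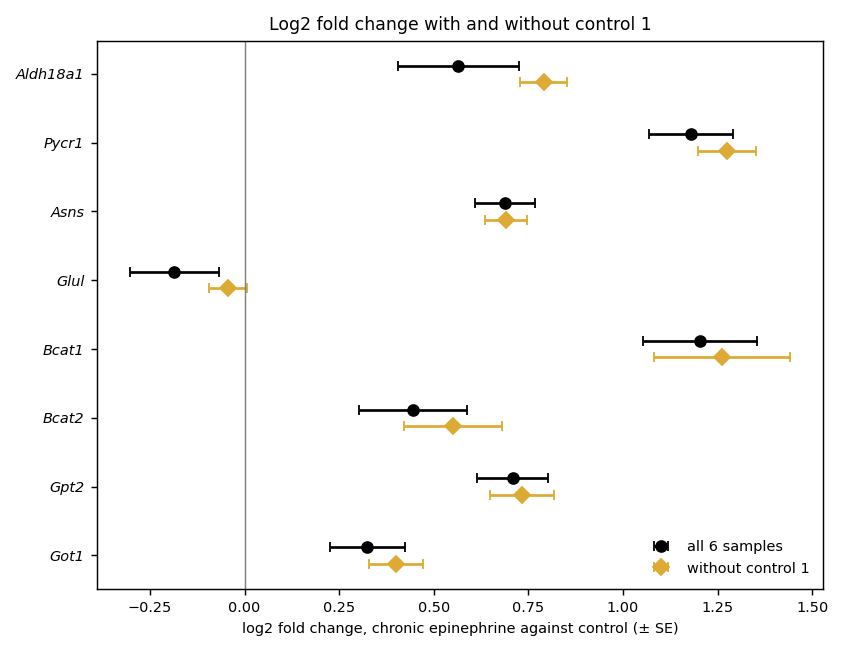
Log2 fold change of chronic epinephrine against control (horizontal axis, bars ± SE) for each of the 8 genes, with all 6 samples (black circles) and without control 1 (yellow diamonds). Leaving out control 1 moved Aldh18a1 from 0.56 to 0.79 and Glul from -0.19 to -0.04, and it moved Asns by less than its SE.

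Ordered by FPKM within the control group, Glul (84.3 ± 15.5) and Asns (75.4 ± 2.20; SD, n = 3) led, followed by Got1 (19.5 ± 2.01), Aldh18a1 (18.7 ± 4.60) and Pycr1 (15.2 ± 2.01). Gpt2 (6.09 ± 0.399), Bcat2 (4.92 ± 1.07) and Bcat1 (0.923 ± 0.0569) were the lowest. Samples overlapped between Glul and Asns, Got1 and Aldh18a1, Aldh18a1 and Pycr1, and Gpt2 and Bcat2, so those neighbours were not separated beyond their spread. After epinephrine the order was Asns (120 ± 6.02), Glul (71.7 ± 1.32), Pycr1 (32.4 ± 0.225), Aldh18a1 (26.8 ± 1.04), Got1 (23.7 ± 1.01), Gpt2 (9.79 ± 0.513), Bcat2 (6.51 ± 0.297) and Bcat1 (2.37 ± 0.0907), and no neighbours overlapped. Pycr1 moved from rank 5 to rank 3 and passed both Aldh18a1 and Got1.

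Enzymes with a close counterpart were then compared with it. None of the 3 counterparts named here passed the test with all samples. Pycrl, the symbol used in the table for the cytosolic pyrroline-5-carboxylate reductase, was not called (log2 fold change 0.35, SE 0.16, FDR 0.325; without control 1 0.21, FDR 0.138). Gpt, the cytosolic alanine aminotransferase, was scarce, at 2.52, 3.60 and 3.13 normalized CPM in the controls and 3.80, 2.91 and 2.91 after epinephrine (log2 fold change 0.05, SE 0.21, FDR 0.925), and without control 1 its log2 fold change was -0.07 (FDR 0.872). Got2, the mitochondrial aspartate aminotransferase, was at 216, 164 and 172 in the controls and 198, 189 and 202 after epinephrine (log2 fold change 0.09, SE 0.11, FDR 0.723), and without control 1 its log2 fold change was 0.23 (FDR 0.00227).

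The FPKM ratio within a pair puts these values together. Bcat1 to Bcat2 was 0.157, 0.252 and 0.175 in the controls and 0.347, 0.389 and 0.360 after epinephrine. Gpt2 to Gpt was 2.65, 1.92 and 2.33 in the controls and 3.02, 3.73 and 3.62 after epinephrine, with Gpt2 the more abundant of the pair in each sample. Got1 to Got2 was 0.247, 0.272 and 0.285 in the controls and 0.304, 0.308 and 0.312 after epinephrine. In these pairs all 3 epinephrine samples lay above all 3 controls, which for Got1 to Got2 was a narrow margin. These ratios contain the genes that were selected, so they carry no test.

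**Figure D3:**
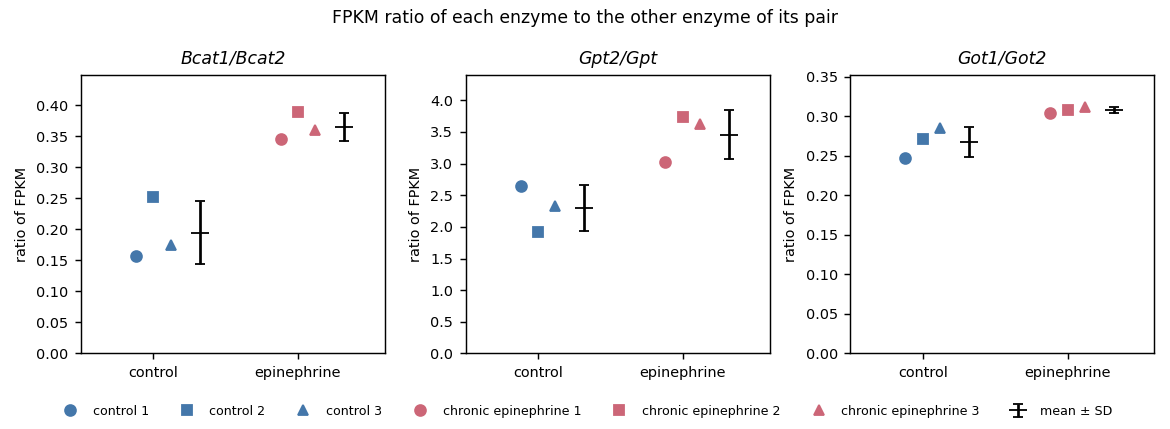
Ratio of FPKM (vertical axes, starting at 0) of Bcat1 to Bcat2, Gpt2 to Gpt and Got1 to Got2 in the 3 control (blue) and 3 chronic epinephrine (red) samples, with the mean ± SD beside them. The ratio of Bcat1 to Bcat2 lay at 0.157 to 0.252 in the controls and at 0.347 to 0.389 after epinephrine, and the ratio of Got1 to Got2 showed the smallest gap.

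The surrounding enzymes were taken from lists written from general knowledge, with the 8 genes left out. Of 17 enzymes of proline, arginine and polyamine metabolism, 13 were tested, and 1 was called as higher and 0 as lower, where 2.02% and 0.612% of all genes tested were called in those directions. Without control 1, 3 of 13 were called as higher and 2 as lower, against 12.1% and 9.46% of all genes. The median log2 fold change was 0.01 with all samples and 0.03 without control 1. The called gene was Odc1, ornithine decarboxylase, which starts polyamine synthesis from ornithine. It was at 157, 159 and 163 normalized CPM in the controls and at 241, 226 and 246 after epinephrine (log2 fold change 0.57, SE 0.08, FDR 0.00906). Without control 1 the log2 fold change of Odc1 was 0.56. Odc1 was called in 2 of the 6 fits that left out a sample, with FDR values up to 0.0915.

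Oat, which links ornithine to pyrroline-5-carboxylate, was at 101, 103 and 108 normalized CPM in the controls and at 128, 120 and 137 after epinephrine. All its epinephrine samples were above its controls, yet it was not called (log2 fold change 0.31, SE 0.08, FDR 0.104), and without control 1 it was (FDR 0.000642). Proline breakdown begins with Prodh, proline dehydrogenase, which was at 3.37, 4.34 and 5.32 in the controls and at 2.55, 2.91 and 2.45 after epinephrine. The groups did not overlap, and the log2 fold change of -0.72 (SE 0.21, FDR 0.129) did not pass the test, while without control 1 it was -0.87 (FDR 0.00485). That fit keeps controls 2 and 3, whose hepatocyte markers other than Ttr summed to 102 and 233 normalized CPM, against 18.2 in control 1. After epinephrine the sum was 16.2 to 19.8, and the part of this signal in the Prodh values was not tested. Prodh had the lowest log2 fold change of its list and Odc1 the highest. Aldh4a1, the next step of proline breakdown, lay between them (log2 fold change 0.05, SE 0.10, FDR 0.838).

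Of 24 other enzymes of glutamate, glutamine, aspartate and alanine, 18 were tested and 0 passed the quasi-likelihood test of edgeR, with 4 at an unadjusted p under 0.05 and 0 called by DESeq2. Over all 12747 genes, 2.02% were called as higher and 0.612% as lower, and an unadjusted p under 0.05 was reached by 2179. The median log2 fold change was 0.10, with 13 higher and 5 lower, where all genes split into 6311 and 6436. Without control 1 the median of the list was 0.08. Gls2, a mitochondrial glutaminase, was at 44.3, 45.0 and 44.1 normalized CPM in the controls and at 55.0, 49.4 and 53.8 after epinephrine, with groups apart and no call (log2 fold change 0.25, SE 0.08, FDR 0.178), and without control 1 it was called (log2 fold change 0.24, FDR 0.0094). Glud1, glutamate dehydrogenase, was not called (log2 fold change 0.07, SE 0.08, FDR 0.724). The highest log2 fold change of the list was 1.03 (SE 0.40, FDR 0.237) for Gad1, glutamate decarboxylase, at 1.19 normalized CPM or less in every sample, and the lowest was -0.30 (SE 0.20, FDR 0.483) for Nit2. The value of Gad1 was 0.18 with limma on log2(FPKM + 1) and 0.69 with 0.1 added in place of 1. Without control 1, 5 of the 19 genes then tested were called as higher and 1 as lower, against the same 12.1% and 9.46% of all genes. Cps1, also on the hepatocyte list, was at 0, 3.20 and 3.50 normalized CPM in controls 1, 2 and 3 and at 0 after epinephrine. It was not among the genes tested with all samples, and the part of the hepatocyte signal in the counts without control 1 was not tested.

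Of 31 genes that encode the breakdown of leucine, isoleucine and valine after the aminotransferase step and the steps it shares with other fuels, 31 were tested, with 0 called as higher and 2 as lower, against 2.02% and 0.612% of all genes. The median log2 fold change was -0.01 with all samples and -0.07 without control 1. The called genes were Hadh and Acaa2, a hydroxyacyl-CoA dehydrogenase and a thiolase of the mitochondrion that are best known from fatty acid oxidation. Hadh was at 318, 358 and 349 normalized CPM in the controls and at 218, 219 and 215 after epinephrine (log2 fold change -0.65, SE 0.08, FDR 0.00647). Acaa2 was at 7.64, 8.57 and 8.76 in the controls and at 5.28, 4.93 and 4.69 after epinephrine (log2 fold change -0.74, SE 0.13, FDR 0.0247). Without control 1 the log2 fold changes were -0.70 for Hadh and -0.80 for Acaa2. Hadh was called in 3 and Acaa2 in 1 of the 6 fits that left out a sample.

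The committed step of branched-chain breakdown, the branched-chain ketoacid dehydrogenase complex, did not pass the test in any subunit. Bckdha and Bckdhb had log2 fold changes of 0.00 (SE 0.10, FDR 0.995) and 0.19 (SE 0.10, FDR 0.370), and the groups overlapped for Bckdha. Dbt and Dld, the other subunits, had log2 fold changes of -0.09 (SE 0.11, FDR 0.713) and 0.21 (SE 0.15, FDR 0.507), and that of Dld was 0.05 without control 1. Bckdk, the kinase that switches the complex off, was at 93.2, 84.3 and 102 normalized CPM in the controls and at 106, 106 and 114 after epinephrine (log2 fold change 0.23, SE 0.09, FDR 0.271). This was the highest value of its list with all samples in the quasi-likelihood fit, whereas without control 2 Dld (0.29) lay above Bckdk (0.15). Ppm1k, the phosphatase that switches the complex on, was not called (log2 fold change -0.11, SE 0.13, FDR 0.705). Without control 1, 1 of the 31 genes was called as higher, Bckdk (FDR 0.0134), and 8 as lower, against 12.1% and 9.46% of all genes.

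**Figure D4:**
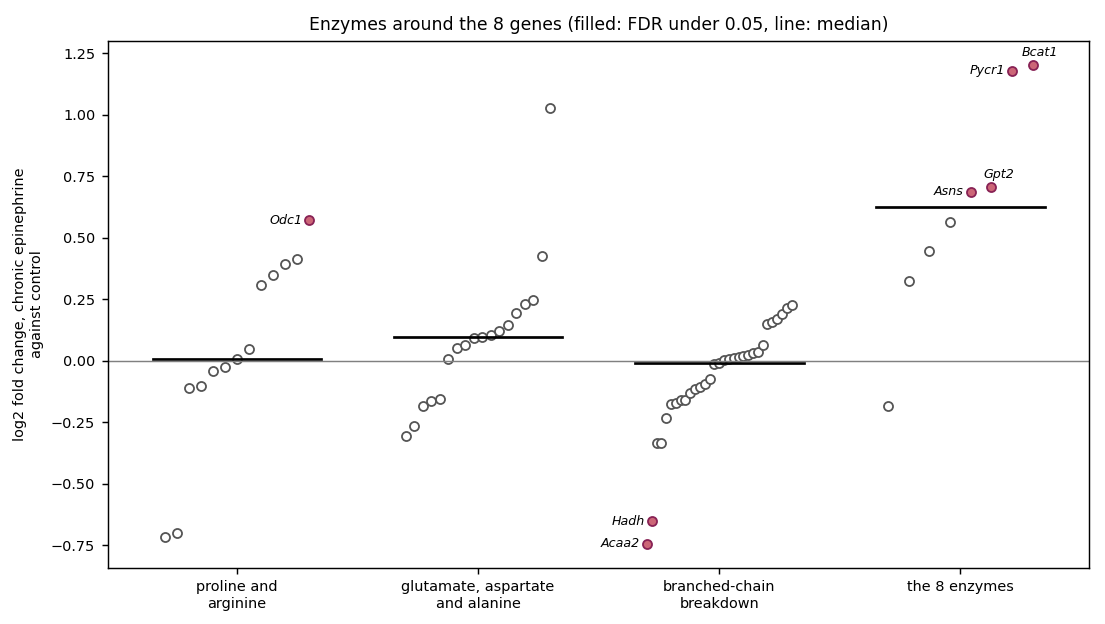
Log2 fold change of chronic epinephrine against control (vertical axis) for the tested genes of the 3 lists of surrounding enzymes and for the 8 genes, each circle 1 gene, filled and named where the FDR is under 0.05, with a line at the median of each list. The medians of the lists are 0.01, 0.10 and -0.01, and the 3 named genes in them are Odc1, Hadh and Acaa2. The 8 genes were picked with this comparison in view, and their median is 0.63.

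The genes whose level across the 6 samples was most like that of each of the 8 were found among 9582 other genes of at least 10 CPM on average, by Pearson's r of log2 CPM. These correlations include the difference between the groups and the deviation of control 1, so they describe the shape of a profile in 6 samples. Asns was most like Mthfd2, a mitochondrial folate enzyme (r = 0.998), and Tsr1 (r = 0.998). Mthfd2 was at 76.2, 70.9 and 77.8 normalized CPM in the controls and at 126, 116 and 124 after epinephrine (log2 fold change 0.70, SE 0.08, FDR 0.00523). Pycr1 was most like Tmem97 and Arrdc4 (both r = 0.996) and Gpt2 most like Tmem97 (r = 0.994) and Nr4a2 (r = 0.993). Tmem97, nearest to both, was at 47.1, 42.1 and 46.6 normalized CPM in the controls and at 79.8, 81.2 and 79.4 after epinephrine (log2 fold change 0.83, SE 0.08, FDR 0.00252). Bcat1 was most like Ildr2 (r = 0.996) and Adm, the gene of the peptide adrenomedullin (r = 0.993), with log2 fold changes of 1.48 (SE 0.13, FDR 0.00149) and 1.27 (SE 0.10, FDR 0.00123).

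Aldh18a1 was most like Wdr83os (r = 0.998) and Hyou1, a chaperone of the endoplasmic reticulum (r = 0.997). Hyou1 was at 535, 330 and 344 normalized CPM in the controls and at 603, 548 and 588 after epinephrine, with control 1 near the epinephrine samples as for Aldh18a1. Got1 was most like Nucb1 and Eef2 (both r = 0.997), and Bcat2 most like Glmp and Mid1ip1 (both r = 0.991). Glul was most like Phf8 (r = 0.999) and Zc3h4 (r = 0.998), for which control 1 was likewise the highest sample. Phf8 was at 65.8, 37.3 and 40.9 in the controls and at 38.0, 37.1 and 37.6 after epinephrine. Atf4 itself was at 163, 198 and 208 normalized CPM in the controls and at 349, 340 and 349 after epinephrine, so control 1 was its lowest sample, unlike that of Aldh18a1, Glul, Bcat1, Bcat2, Got1 and Pycr1, which were highest there among the controls.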

How the data were processed

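RNA of MIN6 cells (3 control and 3 chronic epinephrine samples) was sequenced on an Illumina instrument. The authors deposited 1 table (its functional annotation columns were not used) with, per gene and sample, an expected count (an estimated number of reads, not normalized between samples) and an FPKM value (scaled to transcript length and sample total). The build is GRCm38 per the labels, and the aligner, counter and strand setting are not given in the sources used here. Of the expected counts 8.34% were not whole, and all were rounded. Genes kept by filterByExpr were normalized by TMM and tested with edgeR 4.0.16 (R 4.3.3) by its quasi-likelihood test, control against chronic epinephrine, and p-values were adjusted by the Benjamini-Hochberg method over the 12747 genes kept. The SE is the log2 fold change divided by the square root of F. The scripts were tested on simulated data.

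The 8 genes and all lists were chosen with earlier results of these data known. Named genes followed a rule: the 8 genes, 14 neighbouring enzymes, listed genes at an FDR under 0.05, the largest rise and fall per list, and the 2 most similar profiles per gene. Cps1 was added because it is on both an enzyme list and the hepatocyte list. Some enzymes and markers of the lists are not reported here by name. Positions and transcripts are from GENCODE release M21 on GRCm38, which held 22255 of the 22298 identifiers, and promoters from RefSeq (GRCm38.p6). Alternatives were size factors of DESeq2, upper quartile scaling, no filter, at least 10 counts in every sample, DESeq2 1.42.0, limma 3.58.1 on log2 FPKM with 1 or 0.1 added, replicate number as a block, and each sample left out.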

Additional observations from a re-analysis of the deposited data

How the results depend on the processing

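Pycr1 and the direction of all 8 genes held in each of the 14 alternatives. Aldh18a1 was called by DESeq2 and without control 1. All genes called numbered 335 and, at 2-fold or more, 92. DESeq2 called 729 genes, 3 of the proline and arginine list and 4 of the branched-chain list, where the quasi-likelihood test called 1 and 2. With limma on log2(FPKM + 1), 43 genes passed at 2-fold or more. With replicate number as a block, 178 genes and 1 of the branched-chain list were called and the same 4 of the 8 genes. Nothing states what the numbers mean, and deviations of same-numbered samples correlated at 0.0502, 0.0677 and -0.0488. Over the fits that left out a sample, calls ranged from 47 to 2798 over all genes, 33 to 211 at 2-fold or more, 1 to 7 of the 8 genes, 0 to 5 of the proline and arginine list, 0 to 6 of the glutamate, aspartate and alanine list and 0 to 9 of the branched-chain list, highest without control 1 each time. Gad1 gave no value without chronic epinephrine 1 or with at least 10 counts in every sample.

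Directions changed only for genes that did not pass the test. Bckdha (0.00) was at -0.0053 with size factors of DESeq2, -0.0012 with no filter and with at least 10 counts, -0.0050 with DESeq2, -0.033 and -0.035 with limma on log2 FPKM with 1 and 0.1 added and -0.00099 with the block, and between -0.076 and 0.055 with a sample left out. Dbt was at 0.13 and 0.15 with limma on log2 FPKM with 1 and 0.1 added. With a sample left out, Gpt lay between -0.086 and 0.17. The cause was not tested. Bcat1 had the fewest counts of the 8 genes, 44 to 135 per sample.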
